A study of Mus musculus with 6 samples.

Results

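The epidermal differentiation regulators described here are 10 genes, Trp63, Notch1, Notch3, Hes1, Cebpa, Cebpb, Grhl1, Grhl3, Ovol1 and Prdm1, taken by symbol from the 19309 genes of the deposited expression table. All 10 were found and all 10 passed the filter on low counts, with 462 to 9830 rounded estimated counts in each library. RNA came from whole skin of both cheeks of 3 C57BL/6 mice, 6 to 8 weeks old, giving 3 AEW and 3 Vehicle libraries. AEW, a model of dry skin, was applied to the right cheek of each mouse as a 30 s wipe with equal parts acetone and ether followed by a 30 s water wipe. Vehicle was a 60 s water wipe of the left cheek of the same mouse. Tissue was taken on day 12, so the side of the face and the treatment cannot be told apart.

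Epidermis renews itself from a basal layer whose cells stop dividing, move outward and turn on the proteins of the barrier. Trp63 encodes p63, the transcription factor that maintains stratified epithelium. Notch receptors are cut when they meet a ligand on a neighbouring cell, and the freed part joins RBPJ in the nucleus to switch on targets such as Hes1. C/EBP factors, grainyhead-like factors, OVOL1 and PRDM1 (Blimp-1) act later, as cells withdraw from division and build the cornified layer.

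Of the 10 regulators only Ovol1 passed the test between AEW and Vehicle skin. Ovol1 rose 2.14 fold, and its 3 AEW libraries lay above its 3 Vehicle libraries. Grhl3 and Prdm1 had folds of 1.79 and 1.60 without passing, and Cebpa, Notch3, Hes1 and Notch1 had folds from 0.948 to 1.11. The count of 1 in 10 stood beside 11.6% of all 15109 tested genes called in either direction and 4.85% called higher by the edgeR quasi-likelihood test (adjusted p under 0.05), a share near that of the regulators. Their median log2 fold change was 0.25, against 0.014 over all tested genes.

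**Figure D1:**
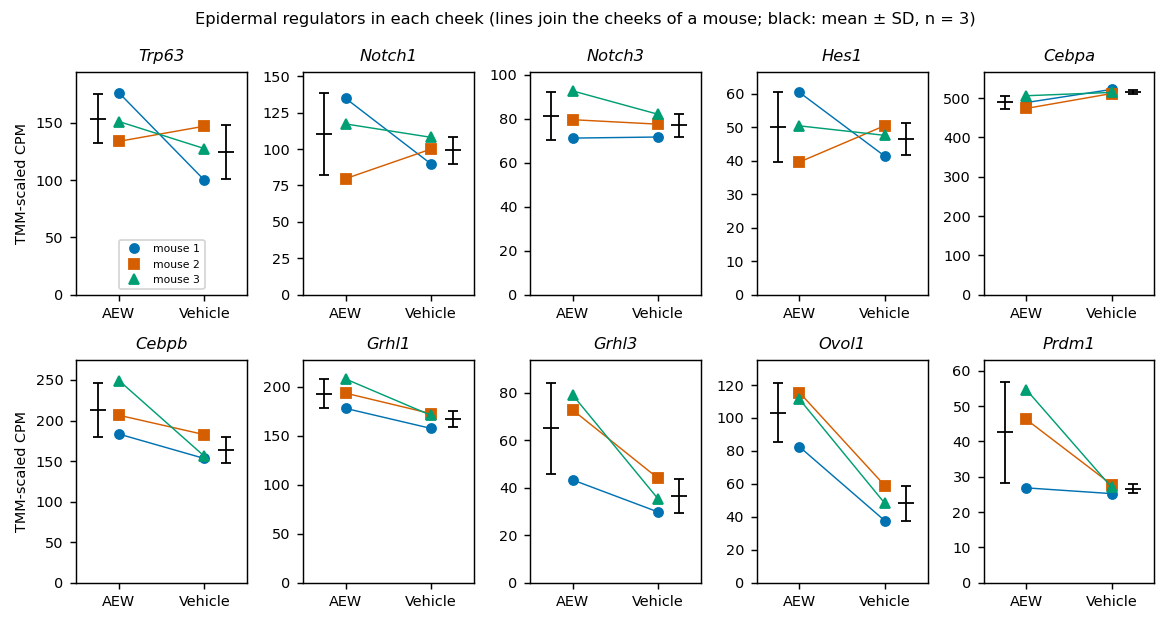
TMM-scaled CPM (y axis, from 0) of the 10 regulators in the AEW and Vehicle cheek of each mouse, with lines joining the cheeks of a mouse and black bars for the mean ± SD of 3 libraries. Ovol1 separates the groups in every mouse, whereas the lines of Trp63, Notch1 and Hes1 cross.

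Promoter sequences were found for 7 of the 10 genes, in 8 promoters, in the RefSeq table of build GRCm38.p6 (the submitters' notes name GRCm39, so these coordinates belong to the table and not to the deposited values). Each covers 250 bases before and 50 bases after the start of the gene. No promoter was found for Trp63, Ovol1 or Hes1, so the motif counts below do not cover these genes. The promoters of Grhl3 and Prdm1, the genes with the largest folds after Ovol1, are shown 5′ to 3′. Capitals mark the RBPJ core TGGGAA, read on either strand, and the AP-1 motif TGANTCA.
Grhl3, chr4:135573583-135573882, minus strand: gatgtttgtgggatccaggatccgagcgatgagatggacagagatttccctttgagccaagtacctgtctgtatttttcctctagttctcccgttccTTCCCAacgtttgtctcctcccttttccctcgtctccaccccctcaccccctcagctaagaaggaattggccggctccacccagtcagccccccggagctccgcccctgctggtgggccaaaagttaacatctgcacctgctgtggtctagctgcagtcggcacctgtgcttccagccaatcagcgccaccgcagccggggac
Prdm1, chr10:44458699-44458998, minus strand: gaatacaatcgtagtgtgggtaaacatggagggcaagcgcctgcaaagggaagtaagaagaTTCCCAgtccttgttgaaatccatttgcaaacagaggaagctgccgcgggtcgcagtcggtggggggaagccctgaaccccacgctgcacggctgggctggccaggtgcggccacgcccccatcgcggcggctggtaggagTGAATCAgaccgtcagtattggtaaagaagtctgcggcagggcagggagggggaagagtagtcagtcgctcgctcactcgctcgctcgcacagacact
The capitals in the Grhl3 promoter are an RBPJ core that begins 153 bases before the start. In the Prdm1 promoter they are an RBPJ core that begins 189 bases before the start and an AP-1 motif that begins 48 bases before it. The RBPJ core was in 2 of the 8 promoters, beside 25.6% of 32851 promoters of that length, and the AP-1 motif in 1 of 8, beside 7.81%. The HES motif CACNAG was in 4 of 8 (Notch1, Notch3, Cebpa and Grhl3), beside 42.5% of all. The C/EBP motif TTGCNNAA, the grainyhead motif AACCNGTT and the OVOL motif CCGTTA were in 0 of the 8 promoters, beside 10.8%, 2.09% and 2.76% of all, each read on both strands. None of these motifs overlapped another in the Grhl3 or Prdm1 promoter.

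Levels of different genes were set side by side as the authors' TPM (transcript levels scaled for length and depth). In AEW skin they ran from Cebpa (318 ± 24.3 TPM) through Cebpb (243 ± 41.8), Grhl1 (97.2 ± 7.82), Ovol1 (74.6 ± 11.1), Trp63 (63.3 ± 7.41), Hes1 (61.2 ± 15.1), Grhl3 (39.6 ± 11.3), Notch1 (19.8 ± 5.81) and Notch3 (17.0 ± 2.50) to Prdm1 (13.8 ± 4.55; all SD, n = 3). In Vehicle skin they ran from Cebpa (321 ± 2.19 TPM) through Cebpb (180 ± 20.6), Grhl1 (82.2 ± 5.80), Hes1 (53.9 ± 6.15), Trp63 (47.3 ± 7.49), Ovol1 (34.3 ± 8.33), Grhl3 (21.4 ± 4.57), Notch1 (16.9 ± 1.73) and Notch3 (15.5 ± 1.20) to Prdm1 (8.39 ± 0.536). Ovol1 thus stood after Grhl1 in AEW skin and after Trp63 in Vehicle skin. In AEW skin the neighbours whose libraries did not overlap in TPM were Cebpb and Grhl1, Grhl1 and Ovol1, and Grhl3 and Notch1. In Vehicle skin they were Cebpa and Cebpb, Cebpb and Grhl1, Grhl1 and Hes1, and Notch3 and Prdm1.

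Trp63, the basal layer regulator, had 176, 134 and 151 CPM (counts scaled to library size) in the AEW cheeks of mice 1, 2 and 3, against 99.9, 147 and 127 CPM in their Vehicle cheeks. The groups overlapped, and the AEW cheek was the higher in mice 1 and 3 and the lower in mouse 2. The log2 fold change of 0.30 (SE 0.17) had a 95% interval from -0.092 to 0.69 (edgeR adjusted p = 0.267). Counts are per gene, so the long and the amino-terminally truncated p63 forms cannot be told apart. Its relatives Trp53 and Trp73 averaged 89.6 ± 16.5 and 6.38 ± 1.47 TPM in AEW skin, against 57.7 ± 6.02 and 4.51 ± 0.912 TPM in Vehicle skin. Trp53, the tumour suppressor gene, rose by 0.57 ± 0.12 on the log2 scale (SE, edgeR adjusted p = 0.0347), and missed the threshold with mice as blocks (adjusted p = 0.094).

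Notch1, the main Notch receptor of keratinocytes, had 135, 79.8 and 117 CPM in the AEW cheeks of mice 1 to 3, against 89.7, 100.04 and 108 CPM in the Vehicle cheeks. The AEW libraries lay on both sides of the Vehicle range, and the log2 fold change was 0.16 (95% interval -0.29 to 0.60, edgeR adjusted p = 0.615). Notch3, a receptor also made by pericytes and vascular smooth muscle, had 71.2, 79.6 and 92.7 CPM in AEW cheeks, against 71.7, 77.6 and 82.1 CPM in Vehicle cheeks. The Vehicle range of Notch3 lay wholly inside its AEW range, with a log2 fold change of 0.074 (95% interval -0.20 to 0.35, edgeR adjusted p = 0.708). Hes1, a repressor switched on by Notch signalling, had 60.4, 39.6 and 50.4 CPM in AEW cheeks, against 41.4, 50.5 and 47.6 CPM in Vehicle cheeks. It lay on the same side as Notch1 in each mouse, higher with AEW in mice 1 and 3 and lower in mouse 2, and its log2 fold change was 0.11 (95% interval -0.27 to 0.49, edgeR adjusted p = 0.685). Without AEW replicate 1 the log2 fold changes of Notch1 and Hes1 were -0.020 and -0.055, and without AEW replicate 3 that of Notch3 was -0.031.

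In the edgeR fit with group only, 1 other Notch pathway gene was called. Of 38 listed ligands, receptors, cleavage enzymes, nuclear partners, modulators and targets, 35 were tested, 0 were called higher and 1 lower, with a median log2 fold change of 0.10. At the same threshold 4.85% of all genes were called higher and 6.8% lower. The 1 lower gene was Dtx1, which encodes the Notch regulator Deltex 1. It had 9.94, 8.40 and 9.67 CPM in AEW cheeks of mice 1 to 3, against 17.0, 14.4 and 12.8 CPM in Vehicle cheeks, and fell by 0.66 on the log2 scale (SE 0.15, edgeR adjusted p = 0.0377). In the fit that blocks by mouse Dtx1 missed the threshold (adjusted p = 0.0759). No gene of the list was called lower when the fit left out AEW replicate 2, Vehicle replicate 1 or Vehicle replicate 3. Of all tested genes these fits called 258, 148 and 117 lower. Leaving out AEW replicate 1 gave 1 higher gene, beside 7.83% of all genes. Under epithelial scaling 16 of the 35 were called lower, beside 36.6% of all genes. The 34 uncalled genes had log2 fold changes from -1.12 to 0.72. Notch2 and Notch4, named here as relatives after their values were seen, averaged 15.5 ± 1.78 and 2.60 ± 0.452 TPM in AEW skin, against 13.7 ± 0.507 and 3.24 ± 0.529 TPM in Vehicle skin.

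The Notch3 to Notch1 ratio of TPM was 0.623, 1.18 and 0.932 in AEW libraries, against 0.943, 0.915 and 0.896 in Vehicle libraries. The Vehicle values were close together and the AEW values lay on both sides of them, with a mean log2 difference of -0.059 (two-sided exact permutation p = 0.9, and 0.9 adjusted over the 3 ratios between related regulators). With 3 libraries against 3, no p below 0.1 can be reached.

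Cebpa and Cebpb encode basic leucine zipper factors that act as keratinocytes leave the basal layer, and both also act in fat cells and, for Cebpb, in myeloid cells. Cebpa had 489, 474 and 506 CPM in the AEW cheeks of mice 1 to 3, against 522, 512 and 514 CPM in the Vehicle cheeks. All 3 AEW libraries lay below all 3 Vehicle libraries, but the log2 fold change was -0.076 with a 95% interval from -0.29 to 0.13 (edgeR adjusted p = 0.597). Cebpb had 183.3, 207 and 249 CPM in AEW cheeks, against 153, 182.6 and 156 CPM in Vehicle cheeks. The groups touched without overlapping, the AEW cheek was the higher in 3 of 3 mice, and the log2 fold change of 0.38 (SE 0.14, 95% interval 0.051 to 0.70) did not pass the test (edgeR adjusted p = 0.119).

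The Cebpb to Cebpa ratio of TPM was 0.661, 0.768 and 0.868 in AEW libraries, against 0.517, 0.629 and 0.534 in Vehicle libraries. Every AEW ratio lay above every Vehicle ratio, with a mean log2 difference of 0.45 that reached the smallest p this design allows (two-sided exact permutation p = 0.1, and 0.3 adjusted over the 3 ratios). It was higher with AEW in 3 of 3 mice, by 0.35, 0.29 and 0.70 on the log2 scale. The other family members, named after their values were seen, were not called. Cebpd averaged 30.5 ± 10.5 TPM in AEW skin and 37.1 ± 4.12 TPM in Vehicle skin, and Cebpg 26.2 ± 2.37 TPM in AEW skin and 25.7 ± 0.770 TPM in Vehicle skin. Ddit3 averaged 29.1 ± 2.57 TPM in AEW skin and 33.4 ± 2.17 TPM in Vehicle skin, and edgeR adjusted p for these 3 genes ran from 0.192 to 0.846. Cebpe was at or below 0.525 CPM in each library and was not tested.

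**Figure D2:**
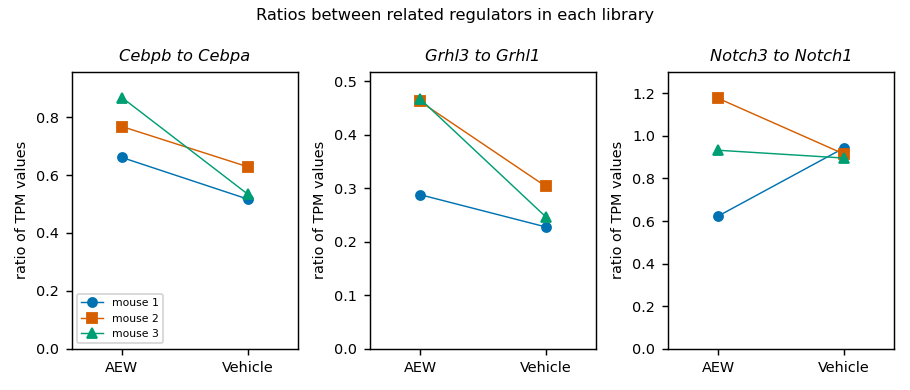
Ratio of the authors' TPM values (y axis, from 0) between related regulators in the AEW and Vehicle cheek of each mouse. The Cebpb to Cebpa ratio separates the groups, the Grhl3 to Grhl1 ratio is higher with AEW in each mouse but overlaps between mice, and the Notch3 to Notch1 ratio moves in opposite directions in mice 1 and 2.

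Grhl1 and Grhl3 encode grainyhead-like factors. In mice Grhl1 is known for desmosomal cadherin expression and Grhl3 for barrier formation and wound closure. Grhl1 had 178, 193 and 208 CPM in the AEW cheeks of mice 1 to 3, against 157, 172 and 171 CPM in the Vehicle cheeks. The groups did not overlap, but the log2 fold change was 0.21 (SE 0.096, 95% interval -0.018 to 0.44, edgeR adjusted p = 0.191). Grhl3 had 43.3, 72.7 and 79.0 CPM in AEW cheeks, against 29.8, 44.0 and 35.3 CPM in Vehicle cheeks. AEW replicate 1 fell just under Vehicle replicate 2, and the other AEW libraries lay above every Vehicle library.

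Grhl3 was higher with AEW in 3 of 3 mice, by 0.84 ± 0.24 on the log2 scale (SE, 95% interval 0.26 to 1.41), which missed the threshold (edgeR adjusted p = 0.069). Blocking by mouse gave 0.81 ± 0.14 and passed (edgeR adjusted p = 0.0498), when 1.99% of all genes were called higher. It also passed without AEW replicate 1 (log2 fold change 1.05, edgeR adjusted p = 0.0107), when 7.83% were. The Grhl3 to Grhl1 ratio of TPM was 0.288, 0.463 and 0.467 in AEW libraries, against 0.228, 0.304 and 0.247 in Vehicle libraries. AEW replicate 1 was again the one inside the Vehicle range. The mean log2 difference was 0.62 (two-sided exact permutation p = 0.2, and 0.3 adjusted over the 3 ratios), where no p below 0.1 can be reached. Grhl2, the third family gene, averaged 14.5 ± 3.66 TPM in AEW skin and 9.62 ± 1.47 TPM in Vehicle skin (log2 fold change 0.54, edgeR adjusted p = 0.109).

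Ovol1 encodes a zinc finger repressor that in mouse epidermis helps progenitor cells leave the cell cycle, with Myc and Id2 among its known targets. It had 82.5, 115 and 111 CPM in the AEW cheeks of mice 1 to 3, against 37.6, 58.9 and 48.2 CPM in the Vehicle cheeks. The lowest AEW library was above the highest Vehicle library, and within mice 1, 2 and 3 the AEW cheek had 2.19, 1.96 and 2.31 times the Vehicle level. Ovol1 averaged 103 ± 17.96 CPM in AEW skin and 48.2 ± 10.6 CPM in Vehicle skin (SD, n = 3 each). The log2 fold change of 1.10 (SE 0.19) had a 95% interval from 0.64 to 1.56 (edgeR adjusted p = 0.0206). Of the 15109 tested genes it ranked 550 by p. Blocking by mouse gave 1.10 ± 0.091 (SE, edgeR adjusted p = 0.0148). Myc and Id2 had log2 fold changes of 0.30 and -0.038 and were not called (edgeR with group only, adjusted p = 0.253 and 0.829).

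The call on Ovol1 depended on which library was left out. It was kept when AEW replicate 1 was left out (edgeR adjusted p = 0.00951), when 7.83% of all genes were called higher, and when Vehicle replicate 2 was (0.0265, beside 2.46%). Leaving out AEW replicate 2 gave an adjusted p of 0.0585 (beside 1.14% called higher), AEW replicate 3 one of 0.0505 (2.27%), Vehicle replicate 1 one of 0.069 (0.216%) and Vehicle replicate 3 one of 0.102 (0.15%). Log2 fold changes ran from 0.95 to 1.27 over these 6 fits. Ovol1 was also called by the DESeq2 test, where 9.01% of all genes were called higher, with DESeq2 size factors (4.96%), without the low-count filter (3.51%) and by limma on log2 TPM with a pseudocount of 1 (4.58%) or 0.1 (4.73%). Blocked by mouse, it was called without mouse 1 (12.7%) or mouse 2 (0.738%) and not without mouse 3, where 0% of genes were called.

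Ovol2 averaged 4.70 ± 1.69 TPM in AEW skin and 4.95 ± 1.14 TPM in Vehicle skin (edgeR adjusted p = 0.749), and Ovol3 was at or below 0.219 CPM in each library. The 3 genes whose levels over the 6 libraries were most like those of Ovol1, by distance between centred log2 CPM among 13361 candidates, were Cnfn, Ttc39a and Dsg3, at distances of 0.163, 0.172 and 0.238. Cnfn encodes cornifelin of the cornified envelope and Dsg3 the desmosomal cadherin desmoglein 3. For Cebpa, the regulator with a negative fold change, the nearest were Sash1, Mkrn1 and Bmt2, at 0.0517, 0.0551 and 0.0579.

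Prdm1 encodes Blimp-1, a repressor known from plasma cells that also acts in the granular layer and the sebaceous gland. It had 26.9, 46.2 and 54.6 CPM in the AEW cheeks of mice 1 to 3, against 25.2, 27.8 and 27.0 CPM in the Vehicle cheeks. The Vehicle libraries were close together, AEW replicate 1 lay among them and the other AEW libraries stood well above. Its log2 fold change was 0.67 (SE 0.24, 95% interval 0.11 to 1.24, edgeR adjusted p = 0.110), and it was 0.91 without AEW replicate 1 (edgeR adjusted p = 0.00495). Summed over 6 B and plasma cell markers the level was 1.60 to 2.22 CPM in AEW libraries, against 1.89 to 3.35 CPM in Vehicle libraries. The 8 sebocyte markers summed to 7480 to 8920 CPM in AEW libraries, against 8291 to 10598 CPM in Vehicle libraries (1 of 8 called higher). Which cells the Prdm1 RNA came from was not tested.

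**Figure D3:**
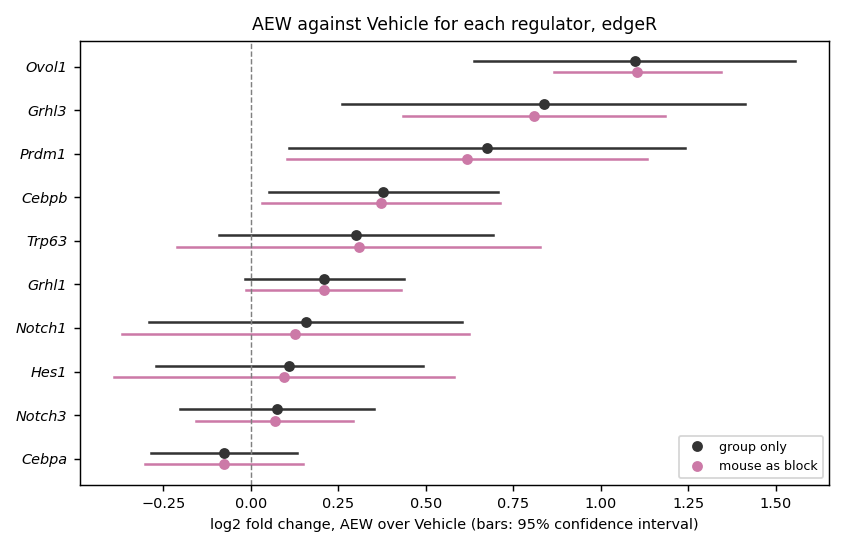
Log2 fold change of AEW over Vehicle (x axis) with its 95% confidence interval for each regulator, fitted in edgeR with group only (dark) and with the mouse as a block (pink). The interval of Ovol1 lies farthest from 0, those of Grhl3, Prdm1 and Cebpb also exclude 0 before adjustment, and the others include it.

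The regulators did not move together from mouse to mouse. Within mouse 1 the AEW to Vehicle ratio was 1.76 for Trp63 (95% exact binomial interval 1.66 to 1.86), 1.502 for Notch1 (1.41 to 1.60) and 1.46 for Hes1 (1.33 to 1.60). Within mouse 2 it was 0.910 for Trp63 (0.862 to 0.961), 0.797 for Notch1 (0.744 to 0.854) and 0.785 for Hes1 (0.712 to 0.865). For Prdm1 the order was different, with a ratio of 1.06 in mouse 1 (interval 0.938 to 1.21). It was 1.66 in mouse 2 (interval 1.49 to 1.86), and mouse 3 had the highest at 2.03 (interval 1.82 to 2.26). These intervals cover counting error only, and differences between mice were not tested.

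Trp63, Notch1 and Hes1 were highest in AEW replicate 1 and lowest in AEW replicate 2 among the AEW libraries. Grhl1, Grhl3, Ovol1, Cebpb, Notch3 and Prdm1 were lowest in AEW replicate 1. Among the Vehicle libraries 9 of the 10 regulators were lowest in replicate 1, with Cebpa the exception. In all 3 mice the AEW cheek was the higher for 5 regulators (Grhl1, Grhl3, Ovol1, Cebpb and Prdm1) and the lower for 1 (Cebpa), and 25.3% of all tested genes were higher with AEW in all 3 mice. The CPM ranges of the groups did not overlap for 4 regulators (Ovol1, Grhl1, Cebpb and Cebpa), beside 36.9% of all tested genes.

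**Figure D4:**
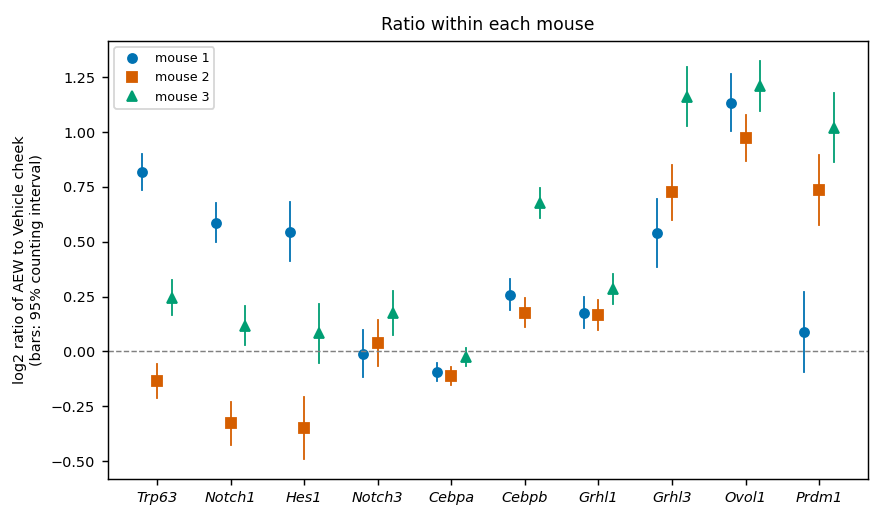
Log2 ratio of the AEW to the Vehicle cheek (y axis) within each mouse for each regulator, with 95% exact binomial intervals of counting error. Trp63, Notch1 and Hes1 lie above 0 in mouse 1 and below 0 in mouse 2, whereas Ovol1 lies between 0.97 and 1.21 in all 3 mice.

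The summed levels of several cell type marker lists also differed between the groups and between mice. The tissue carried epidermal markers throughout, and the 12 genes of the epithelial list, Trp63 among them, summed to 12762 to 15202 CPM in AEW libraries, against 7576 to 11244 CPM in Vehicle libraries (2 of 12 called higher). The 12 skeletal muscle markers summed to 12972 to 18596 CPM in AEW libraries, against 30261 to 45237 CPM in Vehicle libraries (10 of 12 called lower). In bulk skin fewer cells of a type and less RNA per cell cannot be told apart. Scaled by the geometric mean of the epithelial list instead of TMM, 1.87% of genes were called higher and 36.6% lower, the median log2 fold change of all genes was -0.47, and Ovol1 kept a log2 fold change of 0.64 (edgeR adjusted p = 0.0168), which is 1.11 above that median. Grhl3 was then at 0.37 and Prdm1 at 0.19 (adjusted p = 0.154 and 0.501), Cebpa passed as lower at -0.56 (adjusted p = 0.0381), and the remaining 6 were between -0.10 and -0.41, none called.

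Hair follicle markers varied most between the AEW libraries. The 9 measured genes of that list summed to 2241, 146 and 775 CPM in the AEW cheeks of mice 1, 2 and 3, against 472, 481 and 524 CPM in the Vehicle cheeks. AEW replicate 1 was the highest and AEW replicate 2 the lowest, the same order as for Trp63, Notch1 and Hes1, and the part of follicle RNA in their values was not tested. The 6 neutrophil markers summed to 16.6, 81.0 and 52.9 CPM in AEW cheeks, against 12.6, 13.1 and 8.21 CPM in Vehicle cheeks, with 3 of 4 tested called higher. Among the AEW libraries Ovol1 had the same order, highest in replicate 2 and lowest in replicate 1. Grhl1, Grhl3, Cebpb, Notch3 and Prdm1 were also lowest in AEW replicate 1 but highest in replicate 3. The part of neutrophil RNA in these values was not tested. Pericyte and smooth muscle markers, Notch3 among the 10, summed to 683 to 793 CPM in AEW libraries, against 916 to 1025 CPM in Vehicle libraries (2 of 10 lower). Adipocyte markers, Cebpa among the 8, summed to 1872 to 2263 CPM in AEW libraries, against 2256 to 3281 CPM in Vehicle libraries (1 of 8 lower). Macrophage and myeloid markers overlapped between the groups, at 616 to 1549 CPM in AEW libraries and 609 to 1482 CPM in Vehicle libraries, and 0 of 8 were called. No gene of these marker lists was at 0 in all 6 libraries.

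**Figure D5:**
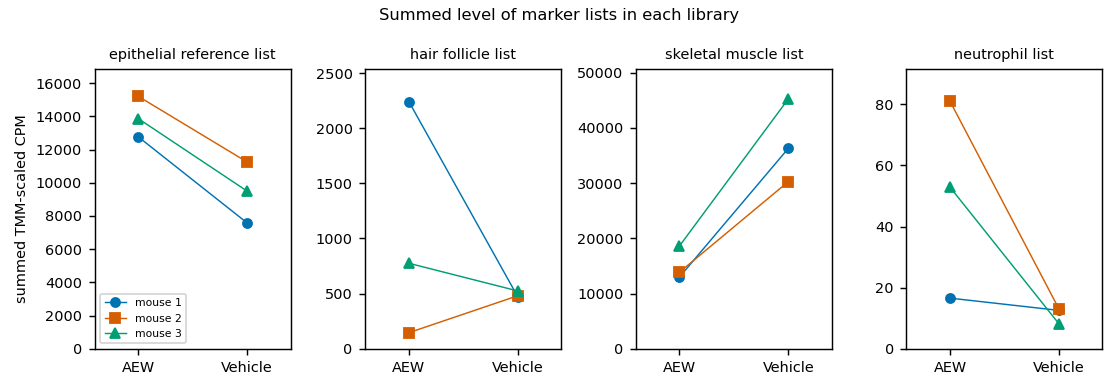
Summed TMM-scaled CPM (y axes, from 0) of 4 marker lists in the AEW and Vehicle cheek of each mouse. Epithelial sums are higher and muscle sums lower with AEW in every mouse, and the hair follicle sum runs from 146 to 2241 CPM among the AEW libraries.

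Several other transcription regulators of the epidermis were called. Of 46 listed, 44 were tested, 6 rose and 1 fell, beside 4.85% of all genes higher and 6.8% lower, with a median log2 fold change of 0.29. Elf3, an epithelial ETS factor, rose to 1.79, 3.36 and 3.15 CPM in AEW cheeks, against 0.765, 0.701 and 0.667 CPM in Vehicle cheeks (log2 fold change 1.95 ± 0.32, SE, edgeR adjusted p = 0.017). Foxn1, a factor of hair and suprabasal keratinocytes, rose by 0.88 ± 0.16 (SE) on the log2 scale, and is also on the hair follicle list. Trp53, given above, Zfp750 and Tfap2a also rose, and Zfp750 and Tfap2a are named after their values were seen. Satb1, a chromatin organiser regulated by p63, fell to 10.4 ± 1.03 CPM in AEW skin, against 17.8 ± 1.20 CPM in Vehicle skin (log2 fold change -0.78, edgeR adjusted p = 0.0162). The fit blocked by mouse called 4 higher and 1 lower, beside 1.99% and 3.89% of all genes, but the 4 were not all among the 6. Elf3, Trp53 and Tfap2a missed the threshold with the block (edgeR adjusted p = 0.0505, 0.094 and 0.117). Barx2, named after its values were seen, was called with the block (edgeR adjusted p = 0.0352) and not with group only (0.0896). Leaving out Vehicle replicate 1 or 3 gave 0 higher genes (beside 0.216% and 0.15% of all), and leaving out AEW replicate 2, AEW replicate 3 or Vehicle replicate 2 gave 2 (beside 1.14%, 2.27% and 2.46%). Under epithelial scaling 2 were higher and 9 lower, beside 1.87% and 36.6%. Satb1 was not called when AEW replicate 2, Vehicle replicate 1 or Vehicle replicate 3 was left out.

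The structural genes of the layers in which these regulators act changed unevenly. Of 15 basal keratinocyte genes 3 rose and 0 fell, beside 4.85% of all genes higher and 6.8% lower, with a median log2 fold change of 0.26. Krt14, the basal keratin 14 gene, rose to 5480 ± 895 CPM in AEW skin, against 2799 ± 650 CPM in Vehicle skin (log2 fold change 0.97, edgeR adjusted p = 0.0319). Itga3, an integrin gene, and Cdh3, the P-cadherin gene also active in hair follicles, rose by 0.73 and 1.37 on the log2 scale. Blocking by mouse left Krt14 alone, with adjusted p of 0.0784 for Itga3 and 0.099 for Cdh3. Leaving out AEW replicate 2 left 1 higher gene (beside 1.14% of all), and leaving out AEW replicate 3, Vehicle replicate 1 or Vehicle replicate 3 left 0 (beside 2.27%, 0.216% and 0.15%). Under epithelial scaling 1 was higher and 4 lower, beside 1.87% and 36.6%. Krt5, Krt14 and Cdh3 of this list are among the genes that set that scale, so these counts are not independent of it.

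Of 32 tested spinous and granular layer genes 8 rose and 0 fell, beside 4.85% of all genes higher and 6.8% lower, with a median log2 fold change of 0.55. The blocked fit gave the same counts, beside 1.99% and 3.89%, but not the same genes. With the block Ivl missed the threshold (edgeR adjusted p = 0.0525). Tgm1 passed with the block (edgeR adjusted p = 0.0467) and not with group only (0.0816). Ivl and Tgm1 are named after their values were seen. Krt1, the keratin of the first suprabasal layer, rose to 3673, 7503 and 5555 CPM in the AEW cheeks of mice 1 to 3, against 1093, 1942 and 1476 CPM in the Vehicle cheeks (log2 fold change 1.89 ± 0.31, SE, edgeR adjusted p = 0.0171). The other genes named by the smallest p were Casp14, Tgm3 and Flg, with log2 fold changes of 2.17, 2.00 and 2.37. The 24 genes not called with group only ran from -0.89 (Krt77, edgeR adjusted p = 0.0504) to 1.30 (Klk7, 0.0643). Of the relatives of Flg, Flg2 was at -0.58 and Hrnr at 0.52 (edgeR adjusted p = 0.124 and 0.362). Krt77, Klk7, Flg2 and Hrnr are named after their values were seen. Within the mice the median log2 ratio of this list was 0.20, 0.57 and 0.80 in mice 1, 2 and 3, whereas that of the basal list was 0.57, 0.10 and 0.21. The spinous and granular median was thus lowest in mouse 1, as were the ratios of Grhl3, Prdm1 and Notch3. The ratios of all other regulators, Ovol1, Grhl1 and Cebpb among them, were lowest in mouse 2. The basal median was highest in mouse 1, as were the ratios of Trp63, Notch1 and Hes1. This is a description of 3 mice with no test. Leaving out AEW replicate 1 gave 18 higher genes (beside 7.83% of all), AEW replicate 2 gave 4 (1.14%), AEW replicate 3 gave 5 (2.27%), and Vehicle replicate 1 or 3 gave 0 (0.216% and 0.15%). The DESeq2 test called 15 higher (beside 9.01%) and 2 lower (beside 1511 of all genes). Of the list 4 genes were lower under epithelial scaling, beside 36.6% of all, and Dsp of the list is among the genes that set that scale. In the fit without AEW replicate 3, 1 gene of the list was lower (beside 654 of all genes). Without the low-count filter 1 was lower (beside 952).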

How the data were processed

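RNA-seq covered 6 libraries, 1 for each cheek of 3 mice. For each library the deposited table lists estimated counts, TPM and FPKM, named so per the file headers, and the authors' group means of each. HISAT and GRCm39 are named by the submitters' processing notes. Neither the counting tool nor the annotation is given in the sources used here.

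Estimated counts were rounded to whole numbers (totals 18449207 to 19506491 per library), filtered with filterByExpr at a minimum count of 10 (15109 genes) and scaled by TMM. CPM are on that scale. AEW was tested against Vehicle in R 4.3.3 by edgeR 4.0.16 (quasi-likelihood test), group as the only term, p-values adjusted by Benjamini-Hochberg over all tested genes at 0.05. Standard errors were obtained by dividing each log2 fold change by the root of its F statistic. On simulated counts of 14941 genes for this comparison, the test recovered 24% of genes raised 1.5 fold, 87.8% of those raised 2 fold and 98% of those raised 4 fold, with 8 of 145 calls false. Genes lowered to 0.5 of their level were recovered at 67.3%. Only 49 or 50 genes were changed at each fold. The share of changed genes in the real data may differ, so these rates may not carry over.

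Both cheeks of a mouse share its number in the labels, so libraries pair by animal. Deviations from group means correlated at -0.270, -0.124 and -0.176 within mice across genes, against -0.0727 to 0.187 between cheeks of different mice. Alternatives added the mouse as a block or used DESeq2 1.42.0, limma 3.58.1 on log2(TPM + 1) and log2(TPM + 0.1) for genes with a mean TPM of at least 0.5, FPKM for the ratios, epithelial scaling, no low-count filter, and fits without each library or mouse. Whether counting used strand is not stated, and overlapping antisense transcripts cannot be told apart. Libraries of a group differed by more than sampling noise (chi-square at least 19.8 times its degrees of freedom).

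The members and lists were chosen with earlier results of these data known. Named genes were all 10 members, up to 4 called genes per list and direction by smallest p, and the 3 genes nearest in level to the member with the smallest p in each direction. One gene that this rule names is not reported here.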

Additional observations from a re-analysis of the deposited data

How the results depend on the processing

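With the mouse as a block (replicate block) 300 genes were higher and 588 lower, against 733 and 1027, and 2 regulators were higher, against 1. The DESeq2 test called 1362 genes higher and 3 regulators (Ovol1, Grhl3 and Prdm1). Scaling by epithelial genes called 282 higher and 5535 lower, and 1 regulator lower (Cebpa). Limma on TPM called 667 (pseudocount 1) and 664 (pseudocount 0.1) genes lower. Leaving out 1 library gave 23 to 1197 genes higher, 117 to 1041 lower, 0 to 3 regulators higher and 0 lower. Leaving out mouse 1, 2 or 3 with the block gave 1922, 112 or 0 genes higher and 1588, 279 or 0 lower. The 0 came from leaving out mouse 3 with the block in edgeR, where 1889 genes had an unadjusted p under 0.05. The 3 without AEW replicate 1, and without mouse 1, were Ovol1, Grhl3 and Prdm1.

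Ovol1 kept a positive log2 fold change (0.64 to 1.27) in all 16 alternatives and was called in 11 of them, with adjusted p from 4.16e-06 to 0.219. Under epithelial scaling the sign turned for Trp63 (-0.15), Grhl1 (-0.27), Cebpb (-0.100), Notch1 (-0.31), Notch3 (-0.41) and Hes1 (-0.36), by construction, since the median of all genes shifted to -0.47. Trp63 is also among the genes that set that scale, so its value there is not independent of it. Leaving out 1 library gave -0.020 (without AEW replicate 1) to 0.34 for Notch1, -0.055 (without AEW replicate 1) to 0.25 for Hes1 and -0.031 (without AEW replicate 3) to 0.15 for Notch3. Without mouse 1, with the block, Notch1 was at -0.10 and Hes1 at -0.13. The cause was not tested. The ratio differences ranged from 0.35 to 0.55 for Cebpb to Cebpa, 0.50 to 0.85 for Grhl3 to Grhl1 and -0.27 to 0.19 for Notch3 to Notch1 when 1 library was left out, and a sign-flip test within mice cannot go below an exact p of 0.25. With FPKM in place of TPM the ratio differences were 0.448, 0.623 and -0.0586. TPM and FPKM differ by 1 factor per library, so a ratio within a library can differ between them by rounding only. With 3 libraries per group, changes of 1.5 fold were mostly missed on simulated data, so uncalled regulators are not shown to be unchanged.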
